A study of Mus musculus with 24 samples.

Results

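The protein kinase C (PKC) genes were followed in bone marrow LSKs, the Lin-Sca-1+c-Kit+ fraction that holds the stem and early progenitor cells of the marrow. The members were the rows of the deposited table of read counts whose symbol was Prkca, Prkcb, Prkcd, Prkce, Prkch, Prkcq, Prkcz or Prkci. They were 8 of 24091 genes, and each of the 8 passed the filter on low counts, which left 13520 genes tested. The RNA came from 24 mice, 6 in each of 4 groups and 3 of each sex within a group. WT mice were miR-142+/+ and miR-142 KO mice were miR-142-/-, both without BCR-ABL. CP CML mice were miR-142+/+ BCR-ABL, and BC CML mice were miR-142-/- BCR-ABL. The names of the latter groups stand for chronic phase and blast crisis of chronic myeloid leukemia in this mouse model. In the CML mice BCR-ABL is expressed under the SCL promoter when tetracycline is withdrawn, which confines the transgene to cells that use that promoter, and LSKs were sorted 2 weeks after induction. All lines are on the B6 background, and ages were not given in the sources used here.

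PKCs are serine and threonine kinases that act downstream of receptors which switch on phospholipase C. That enzyme splits a membrane lipid into diacylglycerol, which stays in the membrane, and an inositol phosphate that releases calcium. Conventional PKCs (cPKCs) need both diacylglycerol and calcium, the calcium-independent class (nPKCs) needs diacylglycerol alone, and atypical PKCs (aPKCs) respond to neither and work in polarity complexes with scaffold proteins. In blood cells PKCs are known from platelet activation, antigen receptor signalling and granule release. PKCα, the product of Prkca, is of interest in this study because it was examined there as a target of miR-142 that acts on NRF2, the transcription factor encoded by Nfe2l2.

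Total counts ranged from 16267965 to 24687077 per library. Levels are given as CPM, read counts over the library total scaled by TMM (trimmed mean of M-values), and, where genes are compared with each other, as CPM per kilobase of the gene length that the table lists. Mir142, the deleted gene, had 94 to 127 counts in the WT and 68 to 153 in the CP CML libraries. The 12 libraries of the miR-142-/- groups had 0 counts, and a count of 0 allows up to 3. The LSK gate genes Kit and Ly6a were measured in every library, with summed levels of 737 to 1310 CPM. Kit made up most of the sum, with means of 936 CPM for WT, 801 for miR-142 KO, 1109 for CP CML and 807 for BC CML LSKs. Ly6a went the other way with miR-142 loss, with means of 41.7, 92.3, 51.9 and 110 CPM. The correlation of each library with the mean of the others of its group was lowest for miR-142 KO replicate 3, at 0.977, and all others were at 0.983 or above. In bulk RNA, fewer cells of a type and less RNA per cell cannot be told apart. Summed over their genes, the marker lists of neutrophil-primed, monocyte or dendritic, and mast cell or basophil priming were higher in the CML groups than in WT LSKs. The sums of HSC and lymphoid-primed progenitor markers were lower, though not each gene of a list followed its sum. Sums of the lists stand beside the members, and their part in those results was not tested.

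Prkcd was the most abundant PKC transcript in all 4 groups, and the make-up of the rest differed between groups. Summed over the 8 members, the level per length was 106 ± 5.15 CPM per kilobase (SD, n = 6) for WT, 108 ± 7.97 for miR-142 KO, 117 ± 5.31 for CP CML and 120 ± 5.38 for BC CML LSKs. Prkcd made up 38.2%, 39.0%, 39.9% and 43.0% of that sum in the same order. The cPKCs Prkca and Prkcb made up 10.04 ± 0.91% (SD, n = 6) for WT, 14.2 ± 1.48% for miR-142 KO, 22.2 ± 2.56% for CP CML and 22.3 ± 4.48% for BC CML LSKs. The nPKCs Prkcd, Prkce, Prkch and Prkcq had a lower share outside WT LSKs, from 78.9% in WT to 73.4%, 67.5% and 65.7%, while the aPKC share lay between 10.3% and 12.4%. In WT LSKs the order of mean levels per length was Prkcd, Prkch, Prkce, Prkcq, Prkci, Prkca, Prkcb and Prkcz. In BC CML LSKs it was Prkcd, Prkcb, Prkci, Prkch, Prkcq, Prkca, Prkce and Prkcz. Prkcb thus stood last but for Prkcz in WT LSKs, at 3.23 CPM per kilobase, and next to Prkcd in BC CML LSKs, at 19.0. Prkce took the reverse path, from 12.2 to 5.94 CPM per kilobase. These shares describe the libraries and were not tested.

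**Figure D1:**
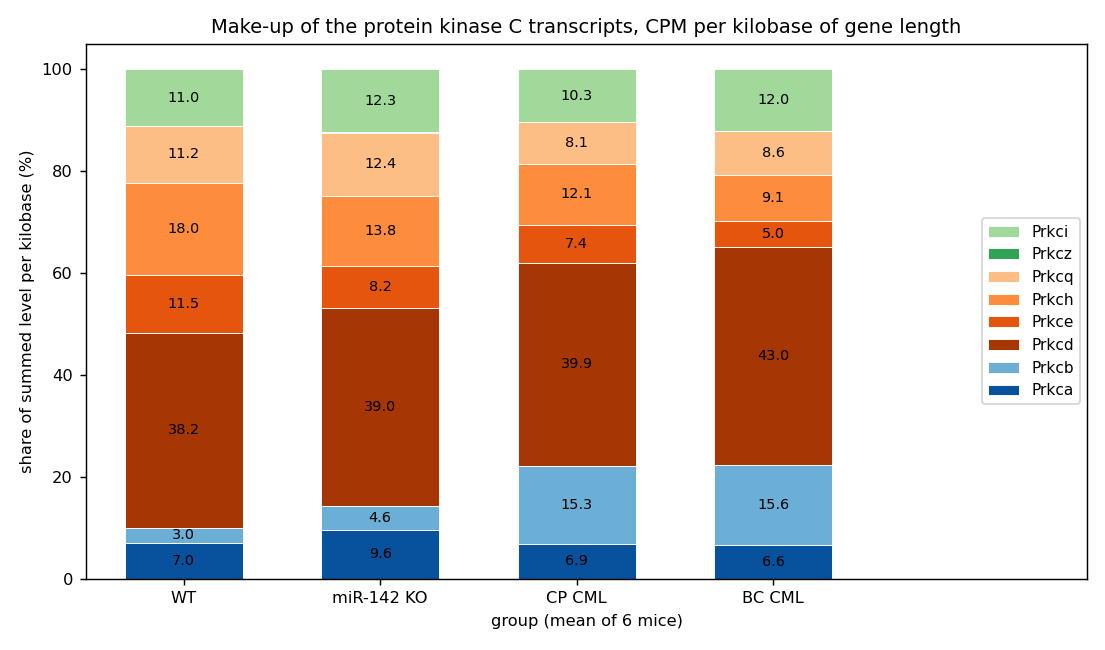
Stacked bars give the mean share (%) of each PKC gene in the summed level per kilobase of the 8 genes, for the 6 mice of each group. Blue cPKC segments widen from 10.04% in WT to 22.3% in BC CML LSKs, and Prkcz (under 1%) is too thin to see.

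Differences between groups were tested with edgeR's quasi-likelihood test, with Benjamini-Hochberg adjustment over all 13520 genes and a threshold of 0.05 on the adjusted p. Each comparison changed a large part of the transcriptome, so the members' counts are read against those shares. In BC CML against CP CML LSKs, 4 of 8 members passed (2 higher, 2 lower), where 38.0% of all genes did (20.4% higher and 17.6% lower). Between miR-142 KO and WT LSKs, 6 of 8 passed (4 higher, 2 lower), against 36.3% of all genes (19.9% higher and 16.4% lower). Between CP CML and WT LSKs, 5 of 8 passed (2 higher, 3 lower), against 45.4% (22.5% higher and 22.9% lower). Between BC CML and miR-142 KO LSKs, 7 of 8 passed (2 higher, 5 lower), against 39.6% (20.3% higher and 19.3% lower). The difference between the effect of miR-142 loss in CML and in normal LSKs passed for 1 member, which was lower, against 3.99% of all genes (2.08% lower). Without Prkcz, whose low counts are described with it, these counts were 3, 5, 5 and 6 of 7 members, and 1 of 7 for the difference of effects. The 4 comparisons share groups, so their counts do not add up as separate evidence. Groups did not overlap for 3, 2, 3 and 4 members in the same order of comparisons, against 20.7%, 14.5%, 21.8% and 10.6% of all genes. With upper quartile scaling the share of higher genes among those called moved from 53.7% to 42.4% between BC CML and CP CML and from 54.7% to 42.0% between miR-142 KO and WT LSKs, and 1 member call changed, that of Prkci between miR-142 KO and WT LSKs.

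**Figure D2:**
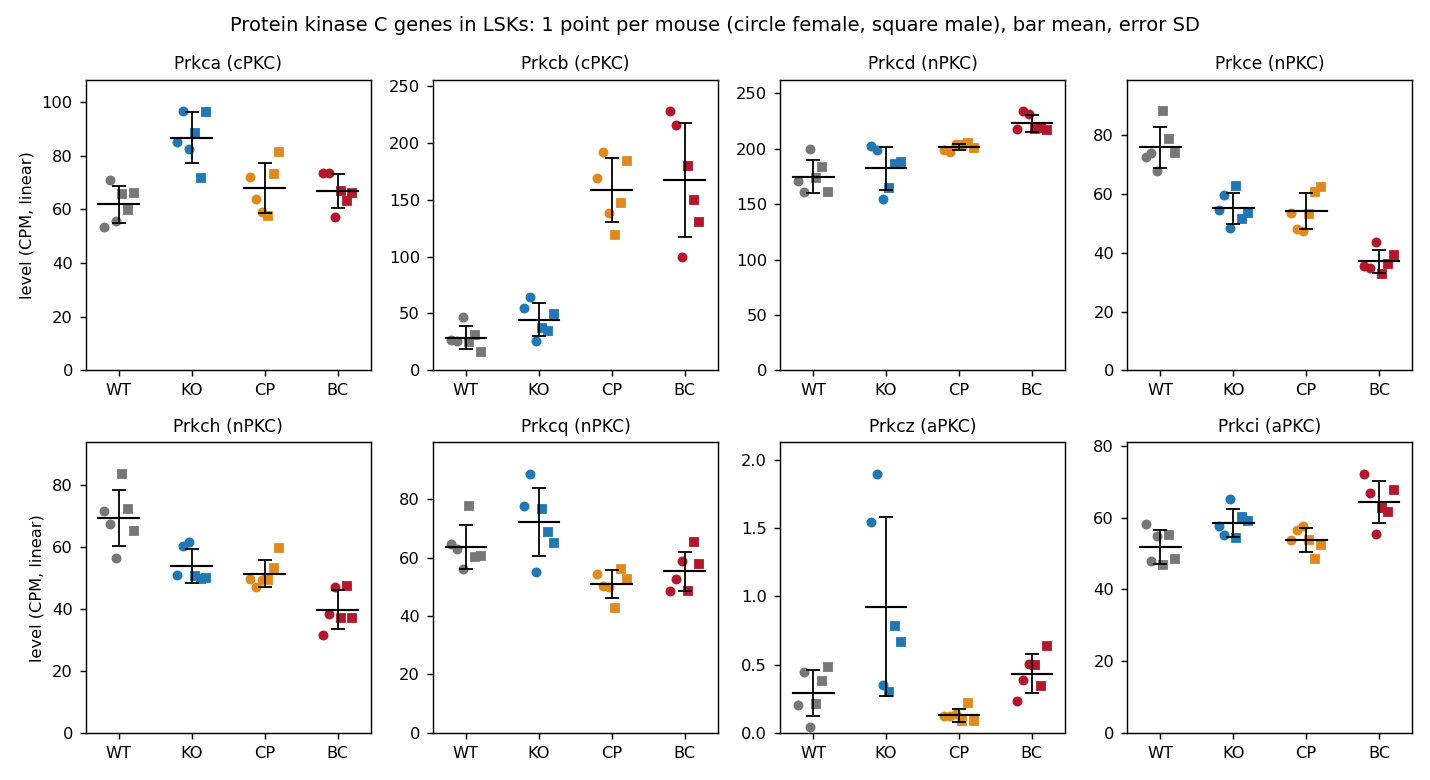
Each panel plots 1 PKC gene in CPM on a linear axis from 0, with 1 point per mouse (circles female, squares male), a bar at the mean of 6 mice and an error bar of 1 SD. Prkcb stands between 99.5 and 228 CPM in the CML groups and at or below 64.0 CPM without BCR-ABL, and Prkce steps down from WT to BC CML.

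**Figure D3:**
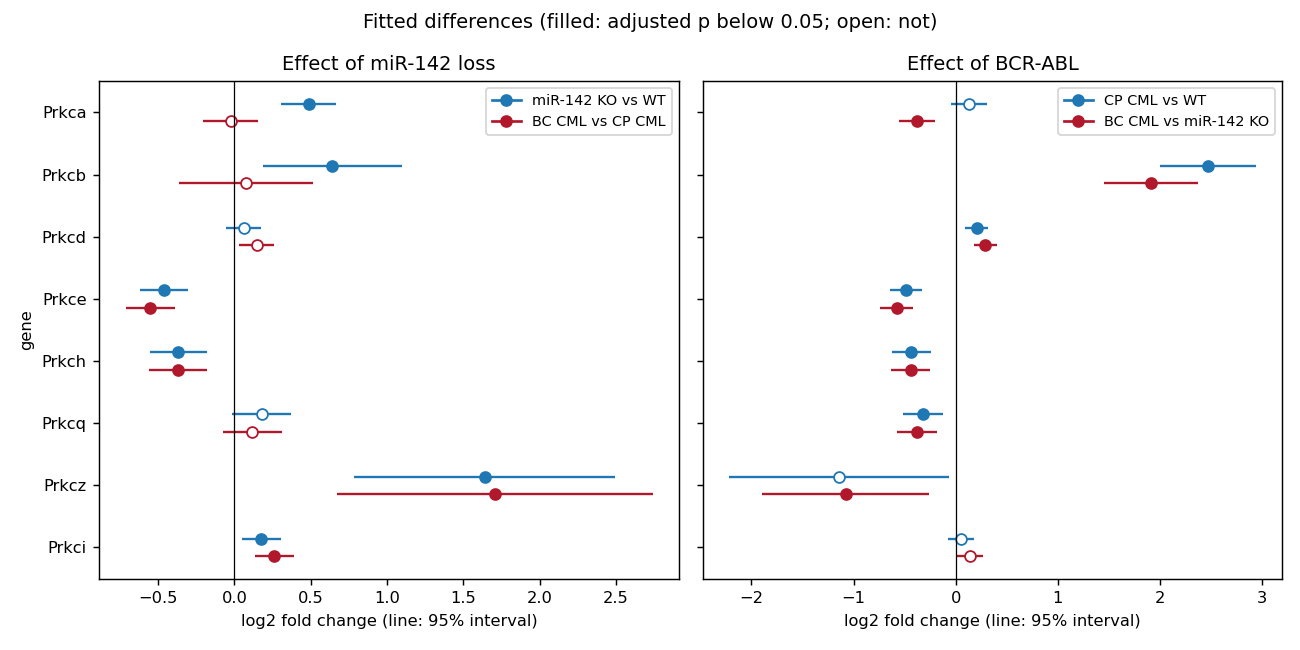
Points give fitted log2 fold changes with their 95% intervals for the effect of miR-142 loss (left) and of BCR-ABL (right), filled where the adjusted p is below 0.05. For Prkca the effect of miR-142 loss is 0.49 without BCR-ABL and -0.02 with it, while Prkce and Prkch lie below 0 in all 4 comparisons.

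The cPKC gene Prkca rose when miR-142 was lost in normal LSKs, and no such rise was measured in CML LSKs. PKCα is the calcium-dependent isoform found in most cell types. In mm10 its gene spans chromosome 11 from 107933387 to 108343888 on the minus strand, 20.18 Mb from Mir142 on the same chromosome. Prkca had a lowest, median and highest level of 53.4, 62.6 and 70.9 CPM in WT and of 71.5, 86.7 and 96.7 CPM in miR-142 KO LSKs. Every miR-142 KO library was thus above every WT library. The difference was 0.49 ± 0.09 on the log2 scale (SE; 1.40-fold; adjusted p = 0.000204), and leaving out any 1 mouse kept it between 0.45 and 0.54.

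In CML LSKs the same values were 57.5, 68.0 and 81.4 CPM in CP CML and 57.1, 66.4 and 73.6 CPM in BC CML. The groups lay over each other, with a difference of -0.02 ± 0.09 (95% interval -0.20 to 0.15; adjusted p = 0.855). The difference between these effects of miR-142 loss was -0.51 ± 0.13 (adjusted p = 0.0255). It was between -0.59 and -0.47 with any 1 mouse left out, with an adjusted p of at most 0.0483. It was -0.50 (adjusted p = 0.290) in females alone and -0.53 (adjusted p = 0.210) in males alone, so neither sex alone gave the call. The effect of BCR-ABL on Prkca was 0.13 ± 0.09 (adjusted p = 0.242) with miR-142 present and -0.38 ± 0.09 (adjusted p = 0.00242) without it. In the order of group means, WT, BC CML, CP CML and miR-142 KO, each neighbouring pair overlapped.

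The mature strands of miR-142 and the places in the Prkca 3′ UTR that pair with the seed are shown because Prkca was the only member with a match. Seed bases 2 to 8 are in capitals, and both strands are lost with the gene. The sequences are those of RefSeq on GRCm38.p6, at chr11:87756867-87756887 and chr11:87756903-87756925, both on the plus strand.
miR-142a-5p: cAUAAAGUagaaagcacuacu
miR-142a-3p: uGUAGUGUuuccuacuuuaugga
The 3′ UTR of Prkca is 6129 bases long, the longest among the members, and holds 2 matches to the 7 seed bases of miR-142a-5p and 0 to those of miR-142a-3p. The windows of 30 bases are written as the transcript reads, from GENCODE M21 on the minus strand, with the matched bases in capitals.
Prkca at chr11:107938350-107938379: ctgtaggatcaagatACTTTATgctgatat
Prkca at chr11:107937551-107937580: gaatccttgagacaaACTTTATctccatgc
Neither match is followed by an A. With bases 2 to 7 of miR-142a-5p alone, the Prkca 3′ UTR held 7 matches, and 1 of them, elsewhere, is followed by an A. A match to bases 2 to 7 followed by an A was found in 15.2% of the tested genes with an annotated 3′ UTR. The other 7 members, with 3′ UTRs of 513 to 3232 bases, had 0 matches to either strand, and with bases 2 to 7 alone a match in Prkce was added. Such matches are common, since 15.9% of the 12612 tested genes with an annotated 3′ UTR held one to miR-142a-5p and 6.97% one to miR-142a-3p. Among the 9105 genes with 3′ UTRs in the members' range of lengths, the shares were 19.0% and 8.23%. The 1999 genes with a miR-142a-5p match had a median log2 difference between miR-142 KO and WT LSKs of 0.00, against 0.02 in genes without one. For the 879 genes with a miR-142a-3p match the medians were 0.09 and 0.01, and between BC CML and CP CML LSKs they were 0.12 and 0.02. A match is a stretch of letters and not a shown site of binding, and mature miR-142 was not measured in these libraries.

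The genes whose levels followed Prkca most closely across the 24 libraries, among 10509 genes averaging 5 CPM or more, were Lmo4 (Pearson r = 0.83), Plek (r = 0.79) and Hectd2 (r = 0.77). With the group means removed the values were 0.55, 0.50 and 0.49. Plek encodes pleckstrin, the classic PKC substrate of platelets. Its level was 0.70 ± 0.13 higher on the log2 scale in miR-142 KO LSKs than in WT (adjusted p = 0.000266) and 0.05 ± 0.13 higher in BC CML LSKs than in CP CML (adjusted p = 0.815). Marker sums of other cells also spread in the miR-142 KO group. The 7 mature neutrophil markers summed to 18.5 to 182 CPM in miR-142 KO and 7.13 to 59.9 CPM in WT LSKs, and the 6 megakaryocyte markers to 216 to 644 and 263 to 380 CPM. Their part in the level of Prkca was not tested.

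Prkcb had the largest response to BCR-ABL among the members. PKCβ, a conventional isoform, is best known from B cell receptor signalling and from myeloid cells. Its gene lies on chromosome 7 from 122289125 to 122634401 on the plus strand. Prkcb had a lowest, median and highest level of 16.3, 25.9 and 46.6 CPM in WT and 119, 158 and 192 CPM in CP CML LSKs. In miR-142 KO LSKs these were 25.9, 43.6 and 64.0 CPM, and in BC CML LSKs 99.5, 165 and 228 CPM. All 12 CML libraries were above all 12 libraries without BCR-ABL.

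The difference between CP CML and WT LSKs was 2.47 ± 0.24 on the log2 scale (5.56-fold; adjusted p = 7.45e-08), and between BC CML and miR-142 KO LSKs it was 1.91 ± 0.23 (3.76-fold; adjusted p = 2.22e-06). Loss of miR-142 went with a difference of 0.64 ± 0.23 in normal LSKs (adjusted p = 0.0341). That call was lost, with an adjusted p of 0.0578 to 0.0891, without any 1 of WT replicates 1, 2, 4 and 6 or miR-142 KO replicates 1, 2 and 6, and in the fit of only the 12 samples compared (adjusted p = 0.0738). In CML LSKs the difference was 0.08 ± 0.22 (95% interval -0.36 to 0.52; adjusted p = 0.809). The difference between these effects was -0.56 ± 0.32 (adjusted p = 0.354).

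Ndst2, Creb3l1 and Rbms1 had the patterns most like that of Prkcb, with r of 0.96, 0.96 and 0.95 over 24 libraries, and 0.78, 0.66 and 0.57 with group means removed. B cell marker sums were not higher where Prkcb was. The 8 genes summed to 31.1 to 46.3 CPM in WT and 25.4 to 38.9 CPM in CP CML LSKs. Some marker sums were higher in CP CML LSKs than in WT, as Prkcb was. For mast cells or basophils they were 261 to 781 CPM in WT and 1323 to 2361 CPM in CP CML LSKs. Those of monocytes or dendritic cells were 135 to 849 and 821 to 1106 CPM, and medians of neutrophil-primed progenitors 2206 and 5892 CPM. In miR-142 KO LSKs, where the Prkcb median was 43.6 CPM, the neutrophil-primed median was 6669 CPM, above that in CP CML. Monocyte or dendritic sums there were 363 to 1068 CPM, and mast cell or basophil sums 429 to 2975 CPM, both overlapping CP CML. In BC CML LSKs, where Prkcb overlapped CP CML, mast cell or basophil sums were 3439 to 7134 CPM. Their part in the level of Prkcb was not tested.

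Among the nPKC genes, Prkcd was higher with BCR-ABL. PKCδ is an abundant isoform of myeloid cells, with roles in apoptosis and in the oxidative burst. Its gene is on chromosome 14 from 30595354 to 30626208 on the minus strand. Prkcd had a lowest, median and highest level of 161, 172 and 200 CPM in WT and 154, 187 and 203 CPM in miR-142 KO LSKs. In CP CML these were 198, 202 and 206 CPM, a narrow spread, and in BC CML 217, 219 and 234 CPM. Without TMM scaling, the BC CML mean of 223 CPM was 213.9 CPM.

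The Prkcd differences were small. CP CML was 0.21 ± 0.06 above WT (1.15-fold; adjusted p = 0.00652), and BC CML was 0.29 ± 0.06 above miR-142 KO (1.22-fold; adjusted p = 0.000589). Every BC CML library was above every CP CML library, yet the difference of 0.15 ± 0.06 did not pass (adjusted p = 0.0524). It passed where only those 12 samples were fitted (0.13; adjusted p = 0.00820), and with any 1 mouse left out of the fit of all samples it did not (adjusted p between 0.0949 and 0.161). Those refits gave 0.11 to 0.14, below the full fit whichever mouse was left out. Filter and scaling were redone in each refit, and their part in this shift was not tested. Between miR-142 KO and WT LSKs the value was 0.06 ± 0.06 (adjusted p = 0.438). Ppp1r21, Sqrdl and Clcn7 were most like Prkcd in pattern, with r of 0.93, 0.91 and 0.90. With the group means removed, r was 0.84, 0.82 and 0.69. Marker sums of monocytes or dendritic cells had medians in the same order as Prkcd, at 339 CPM for WT, 771 for miR-142 KO, 997 for CP CML and 1383 for BC CML LSKs, and so did those of mast cells or basophils, at 592, 1297, 2001 and 5605 CPM. Their part in the level of Prkcd was not tested.

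The RefSeq promoters of Prkcb and Prkcd, the members that were higher with BCR-ABL in both genetic settings, are shown from 250 bases before to 50 after the start, on GRCm38.p6. Capitals mark GGGCGG or its reverse complement CCGCCC, the GC box bound by SP factors.
Prkcb at chr7:122288875-122289174, plus strand: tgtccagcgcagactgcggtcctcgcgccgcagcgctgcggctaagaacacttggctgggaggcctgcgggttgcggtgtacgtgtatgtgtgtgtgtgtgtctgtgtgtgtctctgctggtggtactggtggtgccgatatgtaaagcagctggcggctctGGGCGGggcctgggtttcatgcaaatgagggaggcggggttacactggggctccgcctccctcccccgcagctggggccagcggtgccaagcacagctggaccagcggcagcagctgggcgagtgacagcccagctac
Prkcd at chr14:30626159-30626458, minus strand: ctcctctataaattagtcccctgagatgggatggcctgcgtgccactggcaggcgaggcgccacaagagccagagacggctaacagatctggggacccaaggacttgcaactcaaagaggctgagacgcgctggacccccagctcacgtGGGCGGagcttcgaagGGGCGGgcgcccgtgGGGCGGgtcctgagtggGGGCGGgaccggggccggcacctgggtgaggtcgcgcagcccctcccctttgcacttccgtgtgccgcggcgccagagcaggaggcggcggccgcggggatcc
Prkcb held 1 GC box and Prkcd held 4, and 35.7% of the 32851 RefSeq promoters held at least 1 on either strand. Promoters of 6 members were matched by symbol, and Prkce and Prkch were not. Where several starts are listed, as for Prkcd and Prkcz, the one nearest the gene start in the deposited table was taken. The 6 held 1 to 4 GC boxes each and had a GC content of 59.7% to 75.3%, against a median of 52.7% over all promoters. On either strand, 0 of the 6 held TGTGGT (RUNX; in 16.8% of promoters), CCGGAAG (ETS; 8.86%), TTCNNNGAA (STAT; 8.30%) or TGACNNNGC (the antioxidant response element that NRF2 binds; 12.4%). GC boxes were the only matches, so none overlapped another motif, and a match, or none, describes these windows only.

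Prkce and Prkch, nPKC genes, fell with miR-142 loss and fell with BCR-ABL. PKCε is a widely expressed isoform with roles in cell survival and adhesion, and PKCη is known from epithelia and T cells. Prkce lies on chromosome 17 from 86167785 to 86657919 and Prkch on chromosome 12 from 73584796 to 73778184, both on the plus strand. Prkce had a lowest, median and highest level of 67.9, 74.0 and 88.4 CPM in WT, 48.4, 54.2 and 62.9 CPM in miR-142 KO, 47.5, 53.5 and 62.3 CPM in CP CML and 32.8, 35.8 and 43.8 CPM in BC CML LSKs. WT libraries were above all others and BC CML libraries below all others, with miR-142 KO and CP CML libraries overlapping between them. Prkch had 56.4, 69.3 and 83.6 CPM in WT, 49.6, 50.8 and 61.5 CPM in miR-142 KO, 47.1, 49.5 and 59.5 CPM in CP CML and 31.4, 37.7 and 47.3 CPM in BC CML LSKs. Its group means had the same order, with neighbouring groups overlapping.

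For Prkce the log2 difference was -0.46 ± 0.08 between miR-142 KO and WT LSKs (adjusted p = 0.000113) and -0.55 ± 0.08 between BC CML and CP CML LSKs (0.68-fold; adjusted p = 1.70e-05). BCR-ABL gave -0.49 ± 0.08 with miR-142 present (adjusted p = 6.49e-05) and -0.57 ± 0.08 without it (adjusted p = 1.74e-05). The 4 Prkce calls held in each alternative fit and with any 1 mouse left out. For Prkch the values were -0.37 ± 0.10 for miR-142 KO against WT (adjusted p = 0.00449) and -0.37 ± 0.10 for BC CML against CP CML (adjusted p = 0.00398). BCR-ABL gave Prkch values of -0.43 ± 0.10 (adjusted p = 0.000944) and -0.44 ± 0.10 (adjusted p = 0.00123). The effect of miR-142 loss did not pass the test of a difference between CML and normal LSKs for either gene. That difference was -0.09 for Prkce (95% interval -0.32 to 0.14; adjusted p = 0.730) and -0.01 for Prkch (95% interval -0.27 to 0.26; adjusted p = 0.989). In females alone the Prkch call was lost for miR-142 KO against WT (-0.18; adjusted p = 0.360) and for BC CML against CP CML (-0.34; adjusted p = 0.127). In males alone Prkch lost its call between BC CML and miR-142 KO LSKs (-0.31; adjusted p = 0.0588).

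**Figure D4:**
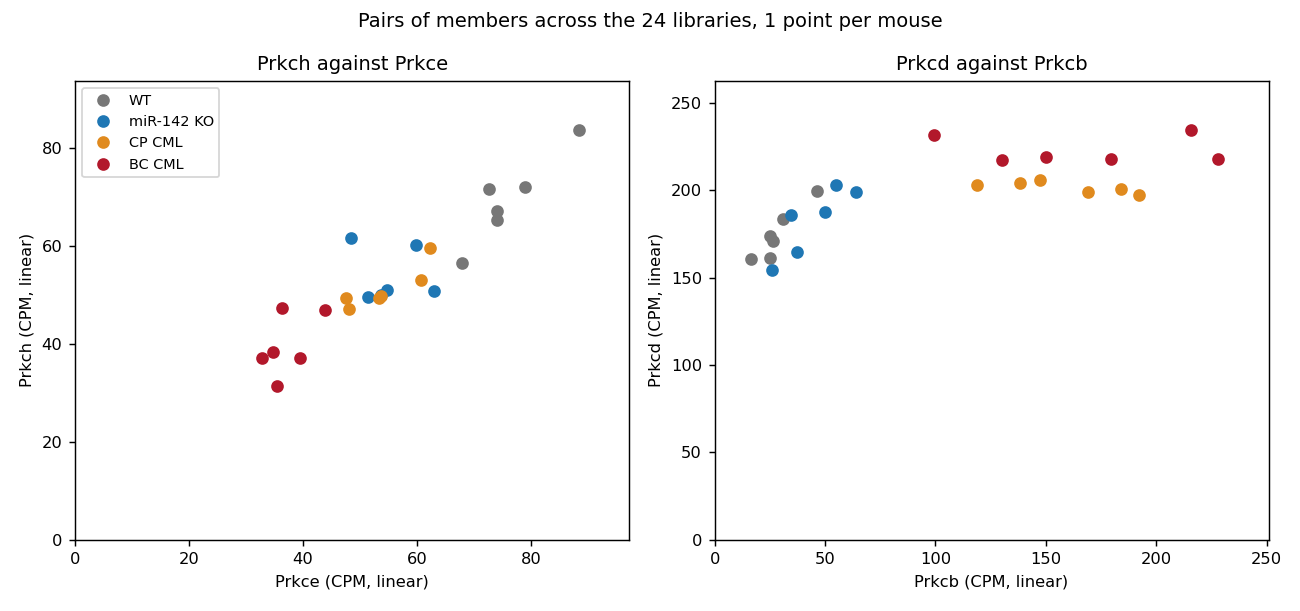
Each point is 1 mouse, with levels in CPM on linear axes from 0: Prkch against Prkce (left) and Prkcd against Prkcb (right). Prkce and Prkch fall together from WT to BC CML, while along Prkcb the CML libraries (from 99.5 CPM) stand clear of the others (up to 64.0 CPM).

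Across the 24 libraries the log2 levels of Prkce and Prkch had a Pearson r of 0.91, and of 0.52 with the group means removed. Those of Prkcb and Prkcd had 0.85 and 0.63, and those of Prkce and Prkci -0.80 and -0.67. All libraries share these 4 group patterns, so the values describe likeness only. Tbc1d10c, Fnbp1l and Fam65b were most like Prkce, with r of 0.97, 0.96 and 0.96, and 0.80, 0.75 and 0.78 within groups. Gimap1, Zmynd11 and Dok2 were most like Prkch, with r of 0.95, 0.94 and 0.94, and 0.79, 0.77 and 0.75 within groups. Several marker sums had their highest median in WT and their lowest in BC CML LSKs, as Prkce and Prkch had. Those of lymphoid-primed progenitors had group medians of 2440 CPM for WT, 1092 for miR-142 KO, 1379 for CP CML and 771 for BC CML LSKs. For HSCs they were 611, 365, 394 and 262 CPM. In both lists the CP CML median was above that of miR-142 KO, unlike in Prkce and Prkch. Medians of B cell sums (37.5, 32.9, 31.05 and 30.0 CPM) and erythroid sums (105.6, 101.5, 30.0 and 20.3 CPM) had the order of the 2 members. The 7 lymphoid-primed genes summed to 2110 to 3282 CPM in WT and 659 to 1020 CPM in BC CML LSKs. Hlf was the largest part of the HSC sums, with means of 450, 188, 273 and 133 CPM in the same order of groups. Not every listed gene followed the sums. Hoxb5 had means of 1.37, 3.49, 0.95 and 2.62 CPM and Mecom of 75.4, 76.5, 49.0 and 60.7 CPM. Among the lymphoid-primed genes Ccr9 had 11.7, 39.1, 4.37 and 17.9 CPM. The part of these markers in the fall of Prkce and Prkch was not tested.

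Prkcq, the last nPKC gene, was lower with BCR-ABL. PKCθ is the isoform of the T cell synapse, and platelets hold it too. Its gene lies on chromosome 2 from 11172382 to 11301226 on the plus strand. Prkcq had a lowest, median and highest level of 56.0, 61.8 and 77.7 CPM in WT, 55.2, 72.8 and 88.8 CPM in miR-142 KO, 42.6, 51.5 and 55.9 CPM in CP CML and 48.5, 55.2 and 65.4 CPM in BC CML LSKs. CP CML libraries lay below all WT libraries, and BC CML overlapped miR-142 KO. The differences were -0.32 ± 0.10 (adjusted p = 0.0115) and -0.38 ± 0.10 (adjusted p = 0.00433). The former lost its call without WT replicate 4 (-0.25; adjusted p = 0.0539) and in females alone (adjusted p = 0.245), and the latter in females (adjusted p = 0.0717) and in males alone (adjusted p = 0.115). The effect of miR-142 loss was 0.18 ± 0.10 in normal (adjusted p = 0.164) and 0.12 ± 0.10 in CML LSKs (adjusted p = 0.365), and the former passed without miR-142 KO replicate 3 (0.25; adjusted p = 0.0374). Sesn1, Scube3 and Vipr2 were most like it, with r of 0.92, 0.91 and 0.91, and 0.88, 0.85 and 0.81 within groups. The 10 T or NK cell markers summed to medians of 125.8 CPM for WT, 141.8 for miR-142 KO, 98.6 for CP CML and 111 for BC CML LSKs, the same order as the Prkcq medians, with ranges of 96.1 to 143 CPM in WT and 95.8 to 116 CPM in CP CML LSKs. The largest parts of these sums were Nkg7 and Lck, which went opposite ways between WT and miR-142 KO LSKs. Their means were 62.5 and 106 CPM for Nkg7 and 42.9 and 16.1 CPM for Lck. The order of the sums thus does not hold for each gene of the list. The part of these markers in the level of Prkcq was not tested.

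Of the atypical members, Prkci was expressed at the level of the other PKCs and Prkcz near the limit of detection. PKCι and PKCζ bind the polarity proteins of the PAR complex. Prkci lies on chromosome 3 from 30995771 to 31052740 on the plus strand. Its lowest, median and highest levels were 46.7, 51.6 and 58.2 CPM in WT, 54.2, 58.3 and 65.1 CPM in miR-142 KO, 48.5, 53.7 and 57.6 CPM in CP CML and 55.5, 64.8 and 72.3 CPM in BC CML LSKs. Groups that differ in miR-142 overlapped at their edges. Prkci was 0.26 ± 0.07 higher in BC CML LSKs than in CP CML (1.199-fold; adjusted p = 0.00296). Between miR-142 KO and WT LSKs it was 0.18 ± 0.07 higher (adjusted p = 0.0385), a call lost with an adjusted p of 0.0644 to 0.0786 without WT replicate 2, 4 or 6 or miR-142 KO replicate 3, and lost with upper quartile scaling (0.12; adjusted p = 0.114), no filter (adjusted p = 0.0515), only the 12 samples compared (0.0799), females alone (0.384) and males alone (0.0810). With BCR-ABL the differences were 0.05 ± 0.07 (adjusted p = 0.535) and 0.14 ± 0.07 (adjusted p = 0.0961), and the latter passed without BC CML replicate 3 or miR-142 KO replicate 3 (lowest adjusted p = 0.0402). The most alike patterns were those of 4833439L19Rik, Pofut2 and Ermp1, with r of 0.90, 0.89 and 0.88, and 0.82, 0.74 and 0.76 within groups. Marker sums of neutrophil-primed progenitors had medians in the same order as Prkci. They were 2206 CPM for WT, 5892 for CP CML, 6669 for miR-142 KO and 7252 for BC CML LSKs, with overlapping ranges. Their part in the level of Prkci was not tested.

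Prkcz lies on chromosome 4 from 155260118 to 155361428 on the minus strand and had 1 to 43 counts per library. Its lowest, median and highest CPM were 0.04, 0.30 and 0.48 for WT, 0.30, 0.72 and 1.90 for miR-142 KO, 0.09, 0.12 and 0.22 for CP CML and 0.24, 0.44 and 0.64 for BC CML LSKs. Every BC CML library was above every CP CML library, and the WT and miR-142 KO libraries overlapped. The log2 differences were 1.71 ± 0.53 (adjusted p = 0.0130) and 1.64 ± 0.44 (adjusted p = 0.00498). In miR-142 KO LSKs 2 females had 35 and 43 counts and the other 4 mice 7 to 19. The effect was 2.45 in females and 0.69 in males alone (adjusted p = 0.337 in males). BC CML against miR-142 KO gave -1.08 ± 0.42 (adjusted p = 0.0440), a call lost without miR-142 KO replicate 1 or 2 or BC CML replicate 1, 2, 4 or 5 (adjusted p of 0.0580 to 0.162), with DESeq2, no filter, sex as a covariate or only the 12 samples compared (adjusted p of 0.0529 to 0.0752), and in either sex alone (0.119 in females, 0.723 in males). CP CML was -1.14 ± 0.55 against WT (adjusted p = 0.0915), which passed without WT replicate 3 (adjusted p = 0.0341). Prkcz reached 10 counts in 2 of 6 WT, 4 of 6 miR-142 KO, 0 of 6 CP CML and 3 of 6 BC CML libraries, so it passed the filter mostly through the miR-142-/- groups, where it was higher. For that reason its calls are a description only, and the counts of members without Prkcz are the ones to read. With no filter on low counts Prkcz stayed called in both comparisons of miR-142 loss, on the same few counts. It did not pass a minimum of 1 CPM in 6 samples, nor the filter in the fit of only CP CML and BC CML samples. Those fits gave no test of it.

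Reads from overlapping genes bear on some members. Prkca shares its span with Apoh on the opposite strand, Prkce with the antisense gene 2010106C02Rik and Prkci with Mir7008, all listed in the table. The strand setting of the counting was not given in the sources used here, so reads in a shared stretch cannot be told apart. With 3 females in a group, other calls were lost in females alone as well. They were those of Prkca between BC CML and miR-142 KO (adjusted p = 0.101), Prkcb between miR-142 KO and WT (0.327), Prkcd between CP CML and WT (0.230) and between BC CML and miR-142 KO (0.108), and Prkci (0.250) and Prkcz (0.283) between BC CML and CP CML.

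Among kinases related to the PKCs, genes moved in both directions with miR-142 loss. Pkn2, a kinase with a catalytic domain like that of the PKCs, was at 102 to 126 CPM in CP CML and 179 to 214 CPM in BC CML LSKs, a log2 difference of 0.85 ± 0.06 (adjusted p = 2.43e-10). It was at 103 to 123 CPM in WT and 174 to 203 CPM in miR-142 KO LSKs, a difference of 0.71 ± 0.06 (adjusted p = 5.44e-09). Pkn2 libraries without miR-142 thus stood above all those with it. Prkd3, a kinase that PKC phosphorylates and switches on, went the other way, from 177 to 208 CPM in CP CML to 126 to 154 CPM in BC CML LSKs (-0.45 ± 0.05; adjusted p = 4.35e-07). It was -0.39 ± 0.05 in miR-142 KO against WT LSKs (adjusted p = 3.14e-06). Prkd2 (-0.43 ± 0.10; adjusted p = 0.00170) was lower in BC CML LSKs than in CP CML as well.

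The enzymes that make and remove diacylglycerol moved as single genes. The counts of this and the following lists stand beside the shares of all genes. Those were 20.4% higher and 17.6% lower in BC CML against CP CML LSKs. In miR-142 KO against WT LSKs they were 19.9% and 16.4%. Of 12 phospholipases C, 8 were tested, with 2 higher and 4 lower in BC CML LSKs than in CP CML (median log2 -0.02), and for miR-142 KO against WT 2 were higher and 2 lower (median 0.04). Plcb3, activated by G protein-coupled receptors, was at 43.4 to 60.7 CPM in CP CML and 83.2 to 92.6 CPM in BC CML LSKs (0.73 ± 0.06; adjusted p = 6.68e-09), and 0.77 ± 0.06 higher in miR-142 KO LSKs than in WT (adjusted p = 3.39e-09). Plcg1, activated by tyrosine kinases, was lower in BC CML (-0.42 ± 0.08; adjusted p = 0.000154). Plch1 (-1.57 ± 0.30; adjusted p = 0.000285) and Plcd3 (-1.82 ± 0.36; adjusted p = 0.000375) were lower too, on 2 to 69 counts per library in the CML groups. Diacylglycerol kinases turn the lipid into phosphatidic acid and so end the signal. Of 10, 8 were tested, and 1 passed in BC CML against CP CML LSKs (median -0.05), namely Dgkq (-0.19 ± 0.07; adjusted p = 0.0469). Dgkh was 1.05 ± 0.14 higher in miR-142 KO LSKs than in WT (adjusted p = 2.20e-06), and Dgkq -0.22 ± 0.07 (adjusted p = 0.0204). In BC CML against CP CML LSKs, Dgkz (0.15 ± 0.07; adjusted p = 0.0750), Dgka (-0.21 ± 0.10; adjusted p = 0.105) and Dgkg (0.17 ± 0.11; adjusted p = 0.215) did not pass.

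Receptors of diacylglycerol other than PKCs had medians above 0 in both comparisons of miR-142 loss. Of 10 genes, 9 were tested, with 5 higher and 2 lower in BC CML LSKs than in CP CML (median log2 0.34, against 0.01 over all genes), and for miR-142 KO against WT 6 were higher and 1 lower (median 0.46). Rasgrp3, which activates Ras in B cells, was the exception that fell most, from 5.76 to 13.04 CPM in CP CML to 1.23 to 2.98 CPM in BC CML LSKs (-2.01 ± 0.23; adjusted p = 4.54e-07). It was -1.90 ± 0.23 in miR-142 KO against WT LSKs (adjusted p = 8.14e-07). Rasgrp2, which activates Rap1 in platelets, was 0.32 ± 0.07 higher in both comparisons (adjusted p = 0.000773 in CML and 0.000763 in normal LSKs). Unc13b, a vesicle priming factor, was 1.40 ± 0.17 higher in BC CML LSKs than in CP CML (adjusted p = 8.01e-07). Rasgrp4, the mast cell member, was 1.03 ± 0.28 higher (adjusted p = 0.00647), beside mast cell or basophil marker sums of 1323 to 2361 CPM in CP CML and 3439 to 7134 CPM in BC CML LSKs, and their part was not tested.

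Genes that mature or remove PKC passed at a share near that of all genes, with 2 of 12 higher and 3 lower in BC CML LSKs than in CP CML (median log2 0.00), and for miR-142 KO against WT 2 were higher and 2 lower (median 0.07). Phlpp1, a phosphatase that dephosphorylates PKC, was at 22.0 to 27.0 CPM in CP CML and 13.8 to 17.0 CPM in BC CML LSKs (-0.65 ± 0.08; adjusted p = 8.40e-07), and -0.35 ± 0.08 in miR-142 KO against WT LSKs (adjusted p = 0.000837). The HSP90 partner Cdc37 was 0.22 ± 0.06 higher in BC CML (adjusted p = 0.00589). Rictor, of the mTORC2 complex that primes PKC, was -0.24 ± 0.07 (adjusted p = 0.00829), and Rbck1 -0.15 ± 0.05 (adjusted p = 0.0157). Mtor was 0.26 ± 0.06 higher in miR-142 KO LSKs than in WT (adjusted p = 0.00277).

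Among scaffolds and partners, 4 of 11 tested genes were higher and 3 lower in BC CML LSKs than in CP CML (median log2 0.12), and for miR-142 KO against WT 2 were higher and 1 lower (median 0.05). Pard3, the scaffold that binds the atypical PKCs, was barely detected where miR-142 was intact, with 0 to 6 counts in WT and 0 to 4 in CP CML LSKs. It had 9 to 86 counts in miR-142 KO and 9 to 60 in BC CML LSKs. Pard3 passed the filter on low counts only through the groups where it was higher, so the text gives its counts alone. It is drawn with the other tested genes and is among the higher genes counted here. The Lgl polarity genes moved in opposite ways in BC CML against CP CML LSKs, with Llgl2 at 0.56 ± 0.11 (adjusted p = 0.000274) and Llgl1 at -0.29 ± 0.06 (adjusted p = 0.000414). The anchoring protein gene Akap13 was lower in BC CML (-0.36 ± 0.08; adjusted p = 0.000970), and Llgl1 was -0.21 ± 0.06 in miR-142 KO against WT LSKs (adjusted p = 0.00708).

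Of 12 PKC substrates, 5 fell in BC CML against CP CML LSKs and 7 did not pass (median log2 -0.08), and 2 rose and 2 fell in miR-142 KO against WT LSKs (median 0.00). Among all genes 38.0% passed in the former comparison, 17.6% of them all being lower, and 36.3% in the latter. Marcks, the myristoylated membrane substrate, was at 53.0 to 84.8 CPM in WT and 8.45 to 24.9 CPM in miR-142 KO LSKs (-1.77 ± 0.26; adjusted p = 1.33e-05). It was at 23.6 to 57.8 CPM in CP CML and 10.8 to 22.4 CPM in BC CML LSKs (-1.24 ± 0.26; adjusted p = 0.000645). No miR-142 KO or BC CML library of Marcks reached its partner group. Its relative Marcksl1 was -0.83 ± 0.12 in BC CML against CP CML LSKs (adjusted p = 1.72e-05). The adducin genes Add3 (-0.20 ± 0.06; adjusted p = 0.00993) and Add1 (-0.15 ± 0.05; adjusted p = 0.0171) were lower in the same comparison.

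The NRF2 axis that the study placed downstream of PKCα gave mixed directions among 6 genes, of which 5 were taken from the study of these mice and are no independent evidence, and Keap1 was added as the known partner of NRF2. In BC CML against CP CML LSKs 2 were higher, Nfe2l2 and Keap1, and 2 lower, Hmox1 and Cpt1a (median log2 -0.30, against 0.01 over all genes). Nqo1 and Cpt1b lay below 0 as well but did not pass. In miR-142 KO against WT LSKs 2 were higher and 2 lower (median 0.03). Nfe2l2 was at 116 to 138 CPM in CP CML and 160 to 174 CPM in BC CML LSKs, and at 108 to 118 CPM in WT and 135 to 149 CPM in miR-142 KO LSKs. The differences were 0.41 ± 0.04 (adjusted p = 1.15e-07) and 0.31 ± 0.04 (adjusted p = 5.04e-06), with no overlap in either. Keap1, which marks NRF2 for removal, was 0.15 ± 0.04 (adjusted p = 0.00503) and 0.12 ± 0.04 higher (adjusted p = 0.0234).

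The NRF2 target Hmox1 varied widely, from 9.01 to 208 CPM in WT, 1.73 to 7.31 CPM in miR-142 KO, 6.73 to 74.6 CPM in CP CML and 4.53 to 16.7 CPM in BC CML LSKs. Its differences were -3.46 ± 0.73 (adjusted p = 0.000646) in normal and -1.82 ± 0.68 (adjusted p = 0.0377) in CML LSKs. Nqo1 was -0.66 ± 0.15 (adjusted p = 0.00107) in normal and -0.35 ± 0.15 (adjusted p = 0.0747) in CML LSKs. Cpt1a, the gate of fatty acid entry into mitochondria, was -0.44 ± 0.08 in BC CML against CP CML LSKs (adjusted p = 0.000299) and 0.01 ± 0.08 in miR-142 KO against WT LSKs (adjusted p = 0.941). Cpt1b was -0.26 ± 0.12 (adjusted p = 0.0858) and 0.06 ± 0.12 (adjusted p = 0.732). These are RNA levels, and neither the amount nor the phosphorylation of any protein was measured in these libraries.

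**Figure D5:**
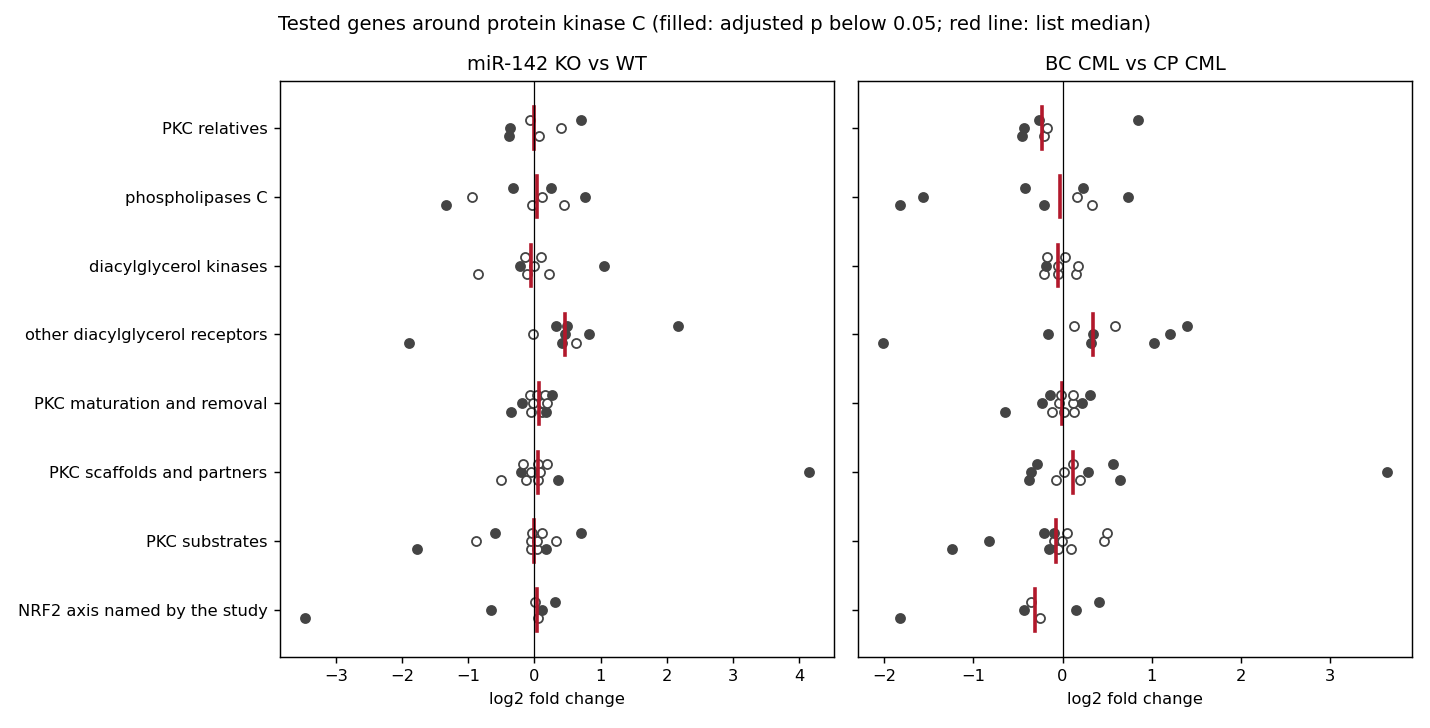
Each point is 1 tested gene of the lists around PKC, with its log2 fold change for miR-142 KO against WT (left) and BC CML against CP CML (right), filled where the adjusted p is below 0.05, and a red line at the list median. Diacylglycerol receptors other than PKCs have the highest medians (0.46 and 0.34). Pard3 is drawn among the scaffolds and partners, but it passed the filter on low counts only through the groups where it was higher.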

How the data were processed

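RNA of sorted LSKs from 24 mice was sequenced as paired reads, and the values deposited by the authors are raw read counts per gene without normalization, beside a column of gene lengths in kilobases. By the methods and processing notes, reads were trimmed with Trimmomatic and FASTP, aligned to mm10 with STAR 2.6.0 and counted with HTSeq 0.11.1. The annotation behind the counts and lengths was not given in the sources used here. The methods name fewer mice per group than the labels, and the labels were followed. Replicates were numbered within groups (1 to 3 female, 4 to 6 male), and each is a separate mouse. The limit of 3 counts covers counting error only. Intervals of log2 differences were built from the standard errors of the fit, which include the variation between mice of a group.

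Counts were tested in edgeR 4.0.16 (R 4.3.3) with filterByExpr, TMM and a quasi-likelihood fit of all 24 libraries (common dispersion 0.0284). Standard errors are the log2 fold change over the root of the F statistic. The likelihood ratio test, DESeq2 1.42.0, RLE and upper quartile scaling, no filter, a minimum of 1 CPM in 6 samples, sex as a covariate, the 12 samples compared, either sex alone and leaving out each mouse were the alternatives, and the fit was tested on simulated data. Correlations used log2 CPM with a prior count of 2 (Python 3.11.15, NumPy 2.4.6). The longest annotated 3′ UTR of each gene was read from GENCODE M21, and miRNA and promoter sequences were those of RefSeq. Named genes were the members, up to 4 genes of each pathway list by smallest p in BC CML against CP CML and 2 in miR-142 KO against WT LSKs, all 6 of the NRF2 axis, and 3 genes most like each member of at least 5 CPM. Plek beside Prkca was named after its values were seen. Members and lists were chosen with earlier results of these data known. Some genes of the lists are not reported here.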

Additional observations from a re-analysis of the deposited data

Results flagged for a closer look

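For Prkca, the effect of miR-142 loss differed between CML and normal LSKs by -0.51 ± 0.13 on the log2 scale (edgeR's quasi-likelihood interaction test with Benjamini-Hochberg adjustment over all genes, adjusted p = 0.0255, 95% interval -0.76 to -0.26). Prkca was 0.49 higher in miR-142 KO LSKs than in WT, with each of the 6 miR-142 KO libraries above each of the 6 WT libraries, and -0.02 in BC CML against CP CML LSKs, where the libraries overlapped. It passed with each of the 24 mice left out in turn and under every alternative fit other than those of 1 sex. None of the 32 sets of 6 libraries (8 members in 4 groups) held a sample far from the others by Dixon's test at 95%.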

How the results depend on the processing

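When each mouse was left out, the counts of genes and members called stayed within 1.5 times the reported ones, 18 member calls of 576 refits were lost and 4 were gained, all named above. Values near 0 changed sign there: the Prkca and Prkcb differences between BC CML and CP CML LSKs ranged from -0.085 to 0.019 and from -0.045 to 0.17, and the differences between the effects of miR-142 loss for Prkch and Prkcz from -0.0897 to 0.031 and from -0.13 to 0.38. In females alone, 1693 genes and 1 member were called between BC CML and CP CML, 2308 and 3 between miR-142 KO and WT, 3059 and 3 between CP CML and WT, 938 and 3 between BC CML and miR-142 KO LSKs, and 28 and 0 for the difference of effects. In males alone, 2915 genes were called between miR-142 KO and WT, 3749 between CP CML and WT and 50 for the difference of effects, with 4 members called between BC CML and miR-142 KO LSKs and 0 for the difference of effects. These fits hold 12 mice. DESeq2 called 891 genes for the difference of effects against 539, and the cause was not tested. Signs also turned for Prkca between BC CML and CP CML LSKs (0.053 in females), and for the differences of effects of Prkch (0.0017 with upper quartile scaling, 0.14 in males), Prkcq (0.10 in males) and Prkcz (-0.96 in females). No paired analysis was possible because the labels give mice of different groups no shared numbers.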

Other observations

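The sexes gave side by side values for the effects of miR-142 loss on the members, with 3 mice of each sex in a group. Between miR-142 KO and WT LSKs, Prkch was -0.18 in females and -0.56 in males on the log2 scale, with a difference of -0.38 ± 0.18 (SE; edgeR, adjusted p = 0.646). In BC CML against CP CML LSKs, Prkce was -0.39 in females and -0.70 in males, with a difference of -0.31 ± 0.15 (adjusted p = 0.996). For Prkcz the effect in normal LSKs was 2.45 in females and 0.69 in males, a difference of -1.76 ± 0.86 (adjusted p = 0.651). None of the 8 members passed the test of a difference between sexes in either comparison.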
